A study of Mus musculus with 4 samples.

Results

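Apoe, Apoc1, Apoc2 and Apoc4, the 4 apolipoprotein genes of one mouse gene cluster, were followed through 4 single-cell libraries of post-stroke brain. They are 4 of the 55357 genes counted and were matched by gene symbol. Their UMIs (unique molecular identifiers, each standing for 1 captured transcript) were summed per library and per cell class, and Apoe in T cells and oligodendrocytes gauged the free RNA of each library. The 4 genes were selected on their UMI levels by class in these same libraries, so the levels are a description and none was tested.

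All 4 libraries come from wild-type mice with ischemic stroke that received hydrogel microspheres, called MAPS, in the infarct cavity on day 5, and the ipsilateral hemisphere was taken on day 14. One library had MAPS alone, and in the other 3 the MAPS carried extracellular vesicles (EV). The series text describes the vesicles as derived from reactive astrocytes, and the libraries are named in the labels as UT EV+MAPS (a treatment the labels do not spell out), as IL-4 C1q EV+MAPS, and as IL-1a TNFa C1q EV+MAPS. Below, these are the UT EV library, the IL-4/C1q EV library and the IL-1a/TNFa/C1q EV library. Wherever 4 values stand in a row, MAPS comes first, then UT EV, then the library with IL-1a, TNFa and C1q, then that with IL-4 and C1q, and rows of 3 values leave out MAPS. There is 1 library per group, the number of mice in each is not given, every group carries the implant, and healthy controls were not analysed here, so all differences are between libraries and have no replicate check.

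Apoe is the main lipid carrier protein of the brain. Astrocytes make most of it in healthy tissue, load it with cholesterol and phospholipid through the transporter Abca1, and release the particles to other cells, which take them up. Microglia, the resident macrophages of the brain, switch Apoe on when they take up debris, as part of the disease-associated state. The full form of that state depends on the receptor Trem2. Apoc1 is a small apolipoprotein that rides on the same particles and hinders their uptake and some lipid-transfer enzymes, Apoc2 is the cofactor that activates lipoprotein lipase (Lpl), and Apoc4 is a minor apolipoprotein for which less is established.

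In the RefSeq annotation of the GRCm38.p6 build the genes lie side by side on chromosome 7, in the order Apoc2, Gm44805, Apoc4, Apoc1, Apoe, with Relb and Clptm1 before them and Tomm40, Gm38955 and Nectin2 after them. Gm44805 is a read-through transcript of Apoc4 and Apoc2. The 250 bases before the annotated start of Apoe and of Apoc4 are shown because, among classes of at least 50 cells, these neighbours were both most abundant in microglia. Apoe had 3 promoter entries, and only the window of its most upstream start was taken. The window of Apoe is chr7:19699189-19699438 and that of Apoc4 is chr7:19681461-19681710, both on the minus strand and written 5′ to 3′. Capitals mark the longest run of letters that both windows hold.
Apoe: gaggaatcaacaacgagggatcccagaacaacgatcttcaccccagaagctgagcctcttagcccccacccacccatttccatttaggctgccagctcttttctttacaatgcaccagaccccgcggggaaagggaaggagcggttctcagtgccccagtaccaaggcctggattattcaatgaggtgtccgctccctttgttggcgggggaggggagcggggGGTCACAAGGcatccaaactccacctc
Apoc4: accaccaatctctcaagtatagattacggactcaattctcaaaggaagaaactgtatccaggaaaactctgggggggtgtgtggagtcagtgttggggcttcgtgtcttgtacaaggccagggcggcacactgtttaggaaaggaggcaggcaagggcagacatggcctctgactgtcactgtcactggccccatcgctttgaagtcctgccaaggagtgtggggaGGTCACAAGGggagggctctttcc
The shared run begins 27 bases before the start of Apoe and 24 bases before that of Apoc4. It is held by 37 of 32817 promoter windows of the same length (0.113%), and since it was picked as the longest match it has no test. Of 6 short motifs searched on both strands, Apoe held the ETS core GAGGAA (in 23.3% of all windows), at the first base of its window. Apoc4 held the Sp1 box GGGCGG (32.7% of windows) and the nuclear receptor element AGGTCA (14.0% of windows), and the latter overlaps the shared run. Neither window held TATAAA (12.4% of windows), the AP-1 site TGANTCA (6.75%) or the E-box CACGTG (6.02%), which says only that these letters are not there.

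The libraries held 13101, 12301, 14218 and 13599 kept cells, with medians of 4465, 2633, 2533.5 and 2422 UMIs. The MAPS library stood apart: its cells were deeper, its median mitochondrial share was 1.402% against 0.552% to 0.577% in the EV libraries, and its myeloid cells fell almost wholly in clusters of their own. Treatment and library therefore cannot be told apart in any comparison with MAPS. Between 0.295% and 0.453% of barcodes were shared by any pair of libraries. Cells were classed by 18 lists of marker genes that hold none of the 4 apolipoproteins, each cell taking the class with the most distinct markers detected, at least 3. Intervals in brackets are exact 95% intervals that cover counting error only, and levels are given in CPM (the gene's UMIs over all UMIs of the class, on the usual scale).

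Apoe was the most abundant transcript of every library. It took 2.997%, 6.09%, 6.40% and 6.35% of their UMIs, and at least 1 Apoe UMI was seen in 98.7% to 99.6% of kept cells. Such a share does not show which cells made it. T cells, which should hold little Apoe of their own, had an Apoe UMI in 95.2% to 99.4% of cells. Their summed level was 3616, 6407, 5352 and 4666 CPM, and the median T cell had 0.165% to 0.186% of its UMIs on Apoe. Oligodendrocytes gave 4083, 10676, 9962 and 9781 CPM. The higher of the T cell and oligodendrocyte levels was used as the free-RNA gauge of each library, and a class at or under it was read as background. The T cell sum, as a share of UMIs, was 0.362%, 0.641%, 0.535% and 0.467%, against 0.320%, 0.460%, 0.521% and 0.486% in the cell at the 90th percentile. A few Apoe-rich cells thus carried much of the T cell sum, and the gauge is not a level of free RNA alone.

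Among classes of at least 50 cells, microglia had the highest Apoe level in each library. The 8 border macrophages of MAPS, under that limit, summed to 47540 CPM (45202 to 49968). The gate held 7168, 5600, 6634 and 5986 microglia. Their Apoe was 44363 CPM (44301 to 44426), 97701 (97565 to 97837), 107933 (107796 to 108070) and 106460 (106312 to 106608), which is 10.9, 9.15, 10.8 and 10.9 times the gauge. The 3 EV libraries lie close together and MAPS lies below all of them. The median microglial cell put 0.448%, 2.98%, 3.87% and 4.56% of its UMIs on Apoe, so in MAPS a minority of cells carried most of the sum.

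Astrocytes, the textbook source of brain Apoe, followed at 23485, 57052, 57140 and 60961 CPM, or 5.34 to 6.23 times the gauge. Their cells were more even, with medians of 2.31%, 5.05%, 5.44% and 5.24% of UMIs, so in each of the 4 libraries the median astrocyte lay above the median microglial cell while the summed microglia lay above the summed astrocytes. Border macrophages, which line vessels and meninges, had at least 50 cells in the EV libraries only and held 59280, 76680 and 90185 CPM. Monocytes and macrophages held 54113, 51681 and 67546 CPM in the same libraries. By the median of the EV libraries the order was microglia, border macrophages, astrocytes, monocytes and macrophages. The microglial range did not overlap the next class, while border macrophages overlapped astrocytes and astrocytes overlapped monocytes and macrophages. Fibroblasts came next, with 30298 and 12583 CPM in UT EV and IL-4/C1q EV (2.84 and 1.29 times the gauge; under 50 cells in the remaining EV library), and then ependymal cells at 1.75 to 2.50 times the gauge. Choroid plexus cells lay at 0.745 to 0.836 times it in the EV libraries and at 1.23 times it in MAPS. By the rule above the EV values are read as background, although each exceeded the T cell level of its library.

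**Figure D1:**
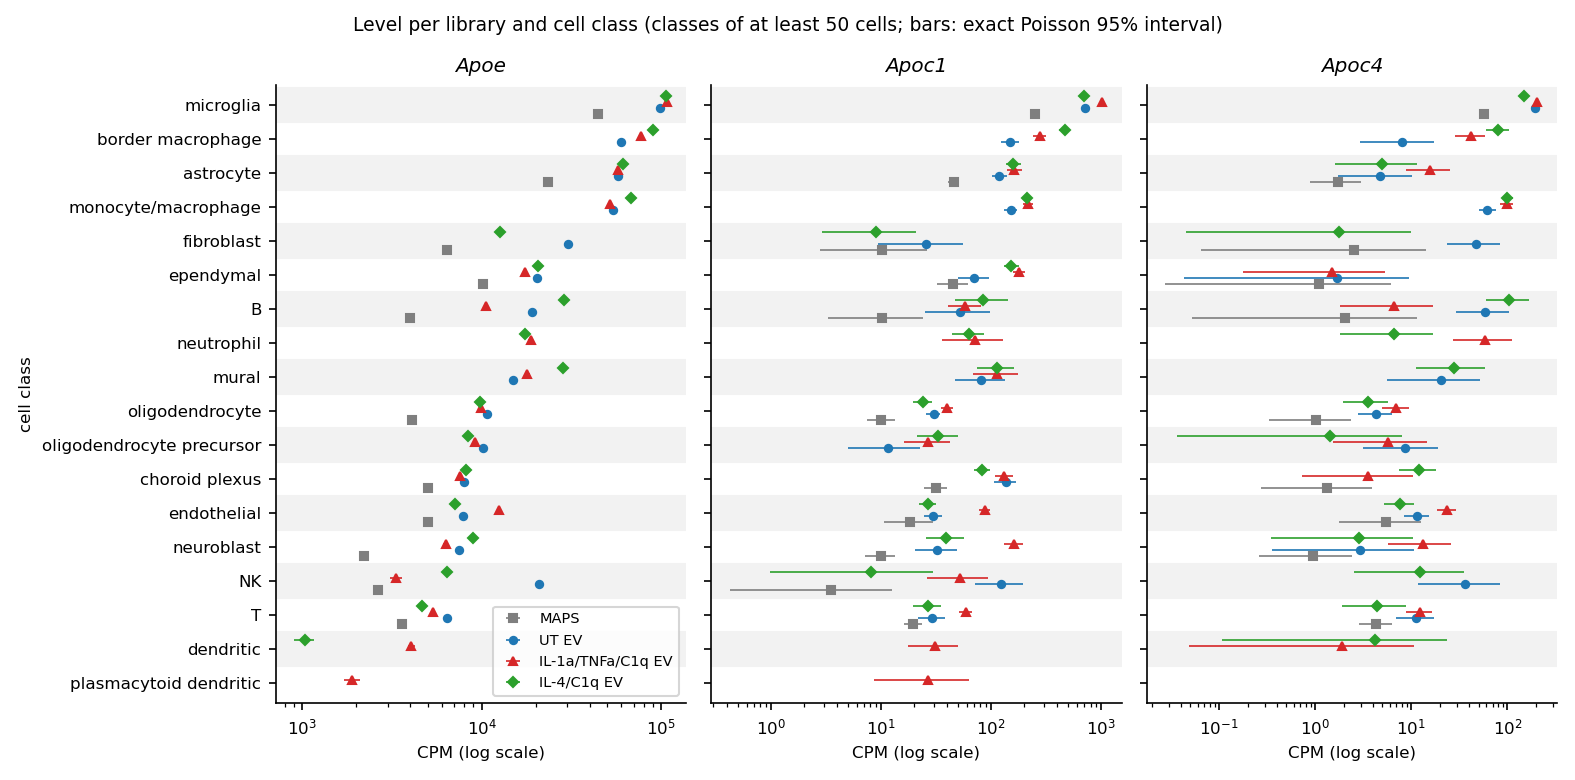
Level of each apolipoprotein gene (CPM, log axis, with exact 95% Poisson intervals) in each cell class with at least 50 cells, with 1 point per library. Microglia stand highest for Apoe, Apoc1 and Apoc4 in all 4 libraries, T cells and oligodendrocytes give the free-RNA gauge, and values of 0 UMIs are not drawn.

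Apoc1 was far rarer than Apoe and was likewise highest in microglia. These held 249 CPM (244 to 254), 719 (708 to 731), 1022 (1008 to 1035) and 698 (686 to 710), which is 12.7, 24.0, 17.4 and 26.3 times the gauge. The IL-1a/TNFa/C1q EV library stood highest and MAPS lowest, and UT EV and IL-4/C1q EV lay close together. Border macrophages held 149, 278 and 466 CPM and monocytes and macrophages 150, 215 and 210 CPM in the EV libraries. Astrocytes held 45.8, 119, 163 and 159 CPM, from 320, 152, 168 and 162 UMIs, or 2.34 to 6.003 times the gauge. The gauge itself was low, at 19.6, 29.0, 58.6 and 26.6 CPM in T cells and 10.0, 29.9, 39.9 and 24.1 in oligodendrocytes.

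After each cell was thinned to 1000 UMIs, an Apoc1 UMI was left in 6.18%, 10.2%, 14.8% and 12.2% of microglia and in 1.32%, 2.62%, 3.07% and 2.48% of T cells. Without thinning the microglial shares were 18.2%, 20.1%, 25.8% and 21.7%, at median depths of 4631.5, 2806, 2476 and 2528.5 UMIs, against T cell medians of 4522, 2045, 1839 and 1964. Apoc1 was therefore seen in a minority of microglia at this depth, above the T cell background in each library. Choroid plexus cells, the epithelium that makes cerebrospinal fluid, held 31.7, 135, 132 and 82.3 CPM of Apoc1, or 1.62 to 4.51 times the gauge. Their Apoe in the EV libraries was read as background.

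Apoc4 was rarer still, with 57.1 CPM (54.9 to 59.4), 196 (190 to 202), 203 (198 to 210) and 148 (142 to 153) in microglia, 13.3 to 33.4 times the gauge. Monocytes and macrophages followed with 61.9, 97.8 and 100 CPM in the EV libraries, and border macrophages with 7.98, 41.8 and 79.8 CPM. B cells reached 57.9 CPM in UT EV and 103 CPM in IL-4/C1q EV, from 11 and 17 UMIs. These UMIs lay in only 1.75% of 57 and 2.5% of 80 B cells, so they do not give a level of the class. Astrocytes, rich in Apoe, held 1.72, 4.70, 15.5 and 4.92 CPM of Apoc4, and the interval of the highest of these (8.87 to 25.2) held the T cell level of the same library, 12.2 CPM. Apoc2 could not be measured: it had 7, 16, 20 and 14 UMIs in whole libraries and 7, 9, 5 and 5 in microglia. The read-through gene Gm44805 had 1 UMI in MAPS and 0 in the EV libraries, and reads that Apoc4 and Apoc2 share with it cannot be assigned from these files.

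The members kept different proportions in different classes. Per 1000 Apoe UMIs, microglia had 5.61, 7.36, 9.47 and 6.56 Apoc1 UMIs, whereas astrocytes had 1.95, 2.09, 2.85 and 2.61. The 2 ranges do not overlap. T cells, part of the gauge, had 5.41, 4.52, 10.9 and 5.69, and oligodendrocytes had 2.46, 2.80, 4.002 and 2.47. Choroid plexus cells had 6.30, 16.98, 17.4 and 10.1. Per 100 Apoc1 UMIs, microglia had 22.9, 27.2, 19.9 and 21.2 Apoc4 UMIs, monocytes and macrophages had 41.2, 45.5 and 47.6, and border macrophages 5.36, 15.1 and 17.1. Of these myeloid classes the monocytes and macrophages were richest in Apoc4 relative to Apoc1 in each EV library.

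Because microglia were also the most numerous class, they held most of the counted UMIs. Of all Apoe UMIs, gated microglia held 87.5%, 75.9%, 76.8% and 72.2%, against 7.43%, 2.80%, 1.91% and 2.25% in astrocytes. Of Apoc1 they held 93.2%, 85.0%, 82.0% and 77.9%, and of Apoc4 96.3%, 82.6%, 80.96% and 75.1%. These shares follow the number and depth of captured cells as well as the level per cell, so they do not give the makeup of the tissue.

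Within microglia, Apoe was spread very unevenly. Cells with over 10% of their UMIs on Apoe made up 10.4%, 26.0%, 30.4% and 29.9% of microglia, cells over 20% made up 0.670%, 12%, 13.5% and 12.5%, and cells over 30% made up 0.0419%, 2.30%, 2.38% and 2.24%. The 3 EV libraries were alike in this upper tail and MAPS had far less of it. When cells thinned to 1000 UMIs were ranked by Apoe, an Apoc1 UMI was seen in 21.5%, 28.7%, 37.3% and 33.7% of the top 25% and in 0.947%, 2.11%, 2.19% and 1.62% of the lowest 25%. Between these lay 0.737%, 3.25%, 4.13% and 3.78% of the second 25% and 1.75%, 6.81%, 15.7% and 9.72% of the next, so Apoc1 was detected more often in cells rich in Apoe but also outside the top 25%.

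**Figure D2:**
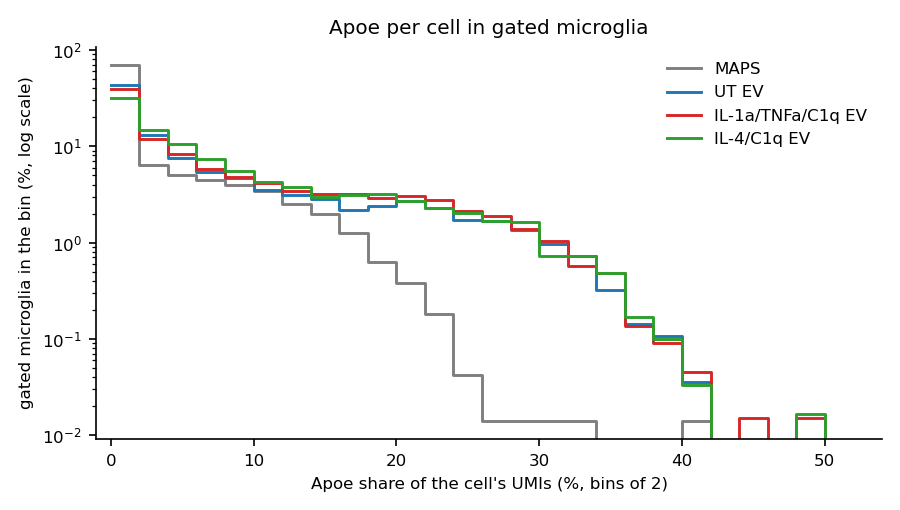
Distribution of the Apoe share of each cell's UMIs (x axis, percent) among gated microglia of each library (y axis, percent of cells, log scale). The MAPS library is concentrated near 0, with 0.670% of cells over 20%, and the 3 EV libraries have long upper tails with 12% to 13.5% of cells over 20%.

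The members varied with microglial state. Thinned microglia were sorted by how many genes of a disease-associated list (14 genes, Apoe left out, among them Spp1, Lpl, Cst7, Itgax and Gpnmb) had a UMI. From cells with none to cells with at least 4, Apoe went from 6709 to 79676 CPM in MAPS, and from 31406 to 144854, 34786 to 144366 and 46396 to 150203 CPM in the EV libraries, which is 11.9, 4.61, 4.15 and 3.24 times. Apoc1 went from 13.2 to 435, 47.2 to 1328, 122 to 1628 and 97.0 to 1335 CPM, a steeper climb of 32.9, 28.1, 13.4 and 13.8 times. The homeostatic list (10 genes, among them P2ry12 and Tmem119) ran the other way, and cells with at least 4 of its genes had 0.174, 0.136, 0.153 and 0.192 times the Apoe of cells with none. Even these cells held 15702, 24120, 26140 and 35416 CPM of Apoe, above the gauge, and their Apoc1 was 44.2, 43.4, 90.6 and 80.4 CPM. Apoc4 ran the same way as Apoc1 along the homeostatic list, where cells with at least 4 genes had 0.0627, 0.0222, 0.0307 and 0.0207 times the Apoc4 of cells with none. The classes cut from such counts are ranges along a scale, not cell types. All homeostatic genes but Selplg are also markers of the microglia gate, so that sorting is not independent of the gate. An unnamed EV cluster led by Saa3 and Ccl8, described below, had only 32.2, 35.2 and 34.1 CPM of P2ry12, and its part in these folds was not tested.

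**Figure D3:**
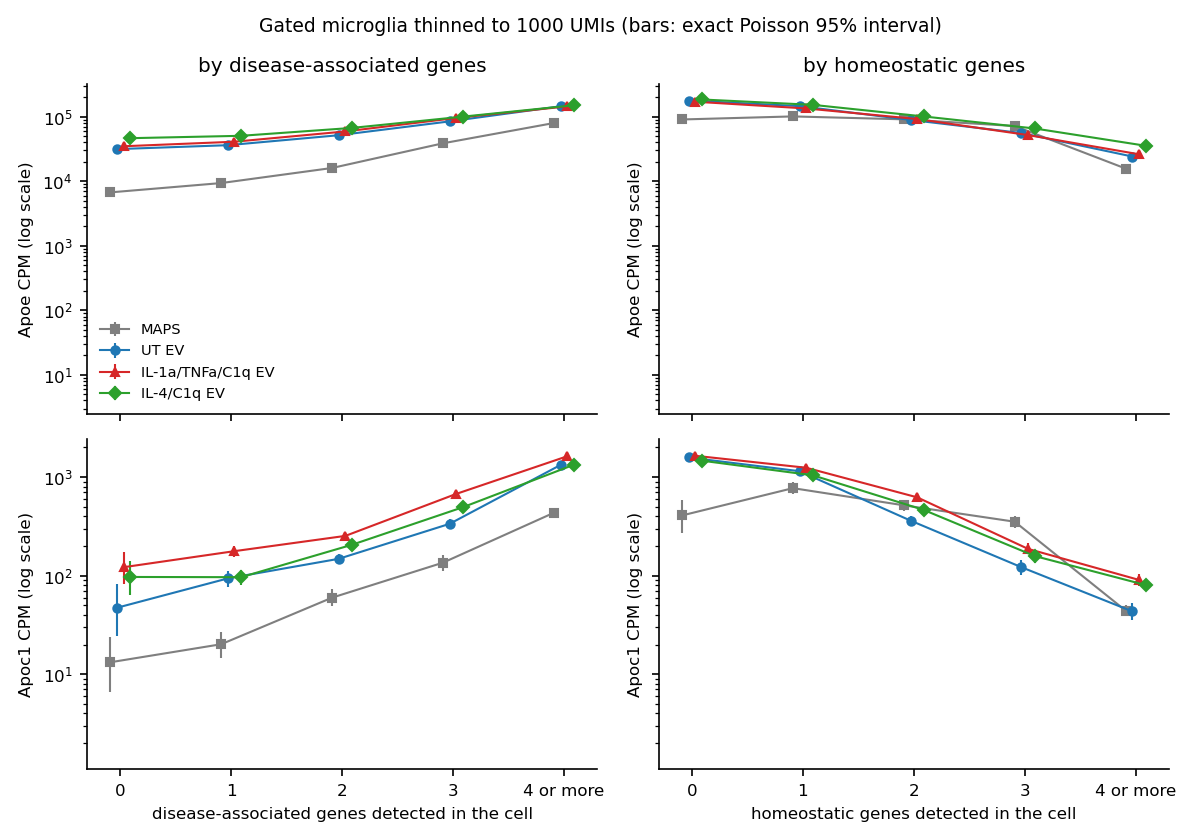
Apoe and Apoc1 level (CPM, log axis) in microglia thinned to 1000 UMIs, by the number of disease-associated or homeostatic genes with a UMI (x axis), with 1 line per library and exact 95% Poisson intervals. In each library both genes are higher with at least 4 disease-associated genes than with none and lower with at least 4 homeostatic genes than with none, and MAPS starts lowest on the left, at 6709 CPM of Apoe.

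Clustering that left the 4 members out placed much of the EV signal in one cluster led by Saa3, Ccl8, Ms4a7, Cxcl9 and Lyz2, genes of acute-phase, chemokine and phagocyte function. It held 4, 647, 1155 and 439 cells, and 84.7% to 86.1% of its EV cells passed the microglia gate. It is given no cell type name. All 12 microglia markers were detected in it, summing to 4071, 3990 and 3947 CPM, against 9798 to 11133 CPM in the EV cells of the clusters led by Crybb1 and by Ccl3 that are described next. The monocyte and macrophage list summed to 799, 998 and 945 CPM, of which Ms4a7 alone gave 666, 892 and 798. Saa3 itself, an acute-phase protein, was 1474, 5989 and 2480 CPM. Apoe took 23.0%, 21.8% and 24.0% of its UMIs in the EV libraries, Apoc1 was 2935, 3059 and 3088 CPM and Apoc4 was 731, 596 and 584 CPM. A cluster with 5.26%, 8.12% and 3.23% of the EV cells thus held 37.1%, 46.3% and 22.3% of Apoe UMIs, 72.1%, 73.2% and 47.2% of Apoc1 UMIs and 64.1%, 70.7% and 40.7% of Apoc4 UMIs.

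Levels inside that cluster differed little between EV libraries, with ratios of 0.95 to 1.10 for Apoe, 1.01 to 1.05 for Apoc1 and 0.80 to 0.98 for Apoc4. Another 4 EV clusters, in which most cells passed the microglia gate, formed steps below it. A cluster led by Ccl12, Ccl2 and Il1a (1155, 1814 and 1989 cells) had 10.02%, 9.55% and 11.04% of UMIs on Apoe, with 350, 366 and 454 CPM of Apoc1 and 66.8, 56.0 and 63.5 CPM of Apoc4. An unnamed one led by Spp1, a secreted phagocyte protein (383, 321 and 340 cells), had 8.51%, 7.52% and 10.4%, with 307, 376 and 539 CPM of Apoc1. One led by Crybb1 and Gp9 (1538, 1445 and 1886 cells) had 4.01%, 3.53% and 5.79%, with 108, 205 and 192 CPM of Apoc1, and one led by Ccl3 and Ccl4 (1717, 1844 and 1216 cells) had 3.53%, 4.34% and 3.95%, with 60.2, 109 and 58.0 CPM. In 3 of these 4 clusters Apoe was highest in the IL-4/C1q EV library, the Ccl3 and Ccl4 cluster being the exception.

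A further EV cluster, led by Gpnmb and Pf4, had 761, 900 and 1088 cells, with 9.59%, 9.12% and 11.6% of UMIs on Apoe and 233, 432 and 521 CPM of Apoc1. In MAPS the microglia lay mainly in a cluster led by Lpl, Cst7 and Itgax and in one led by P2ry12 and Tmem119. The first had 1736 cells, 8.99% of UMIs on Apoe, 563 CPM of Apoc1 and 131 CPM of Apoc4, and held 72.5%, 86.1% and 90.03% of the library's Apoe, Apoc1 and Apoc4 UMIs. The second had 5011 cells, 0.948% of UMIs on Apoe, and 20.6 CPM of Apoc1 and 3.36 CPM of Apoc4, both at the free-RNA gauge.

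**Figure D4:**
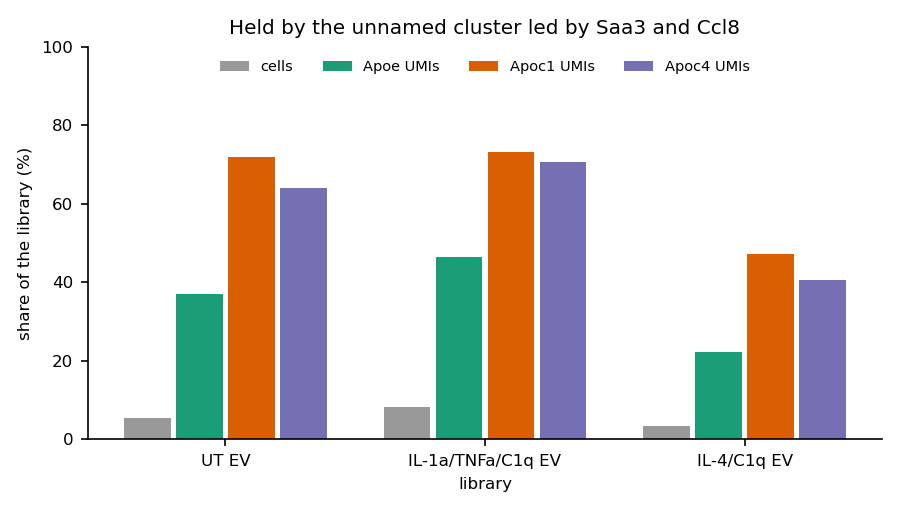
The cluster led by Saa3 and Ccl8 in the 3 EV libraries, as its share of kept cells and its share of the library's Apoe, Apoc1 and Apoc4 UMIs (y axis, percent). With 3.23% to 8.12% of the cells it holds 22.3% to 46.3% of the Apoe UMIs and 47.2% to 73.2% of the Apoc1 UMIs.

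Between the EV libraries, microglial members differed by less than 1.5-fold. IL-4/C1q EV over UT EV gave 1.09 (1.087 to 1.092) for Apoe, 0.971 (0.948 to 0.994) for Apoc1 and 0.755 (0.719 to 0.793) for Apoc4. None of the 3 measured members passed 1.5-fold, against 6.88% of genes. IL-4/C1q EV over IL-1a/TNFa/C1q EV gave 0.986, 0.684 (0.669 to 0.698) and 0.726, again 0 of 3 against 9.83%. IL-1a/TNFa/C1q EV over UT EV gave 1.10, 1.42 (1.39 to 1.45) and 1.04, 0 of 3 against 9.31%. Apoc1 was thus highest in the IL-1a/TNFa/C1q EV library and Apoc4 lowest in the IL-4/C1q EV library of the 3.

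The cluster led by Saa3 and Ccl8 made up 9.9%, 14.98% and 6.2% of gated microglia in the EV libraries. Without its cells, IL-4/C1q EV over UT EV became 1.80 for Apoc1 and 1.30 for Apoe, IL-4/C1q EV over IL-1a/TNFa/C1q EV became 1.15 and 1.29, and IL-1a/TNFa/C1q EV over UT EV became 1.57 and 1.01. For Apoc4 the same 3 ratios became 1.17, 1.30 and 0.896. In the remaining microglia Apoe and Apoc1 were highest in IL-4/C1q EV. Over all gated microglia, with the cluster led by Saa3 and Ccl8 kept, the interferon response list was higher in the IL-4/C1q EV library. There 13 of 13 genes passed 1.5-fold over UT EV, against 6.88% of all genes in either direction. Within that library's thinned microglia, from cells with none to cells with at least 4 interferon genes, Apoe went from 69280 to 93150 CPM (1.34 times) and Apoc1 from 297 to 475 CPM (1.60 times), a smaller span than along the disease-associated list.

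Against MAPS all 3 measured members were higher in each EV library when microglia were taken by the gate. With cluster classes in place of the gate, Apoe stayed higher (1.26, 1.37 and 1.72), while Apoc4 turned to 0.567, 0.541 and 0.686. Apoc1 became 0.646, 0.896 and 1.08. These cluster classes leave out unnamed clusters, among them those led by Saa3 and Ccl8 and by Spp1. They keep the cluster led by Lpl, Cst7 and Itgax, mostly of MAPS, as microglia. By the gate, UT EV over MAPS gave 2.20 for Apoe, 2.89 for Apoc1 and 3.43 for Apoc4, IL-1a/TNFa/C1q EV gave 2.43, 4.104 and 3.56, and IL-4/C1q EV gave 2.40, 2.81 and 2.59. Genes past 1.5-fold in either direction were 79%, 82.6% and 79.6% of those measured, and genes past it upward 10.4%, 10.7% and 9.39%. The median gene was lower in the EV libraries, at -1.20, -1.44 and -1.24 on the log2 scale, and over that median UT EV was 5.06 times (Apoe), 6.65 times (Apoc1) and 7.88 times (Apoc4) MAPS. Without the cluster led by Saa3 and Ccl8 the UT EV ratio of Apoe was 1.52 and that of Apoc1 turned to 0.793.

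**Figure D5:**
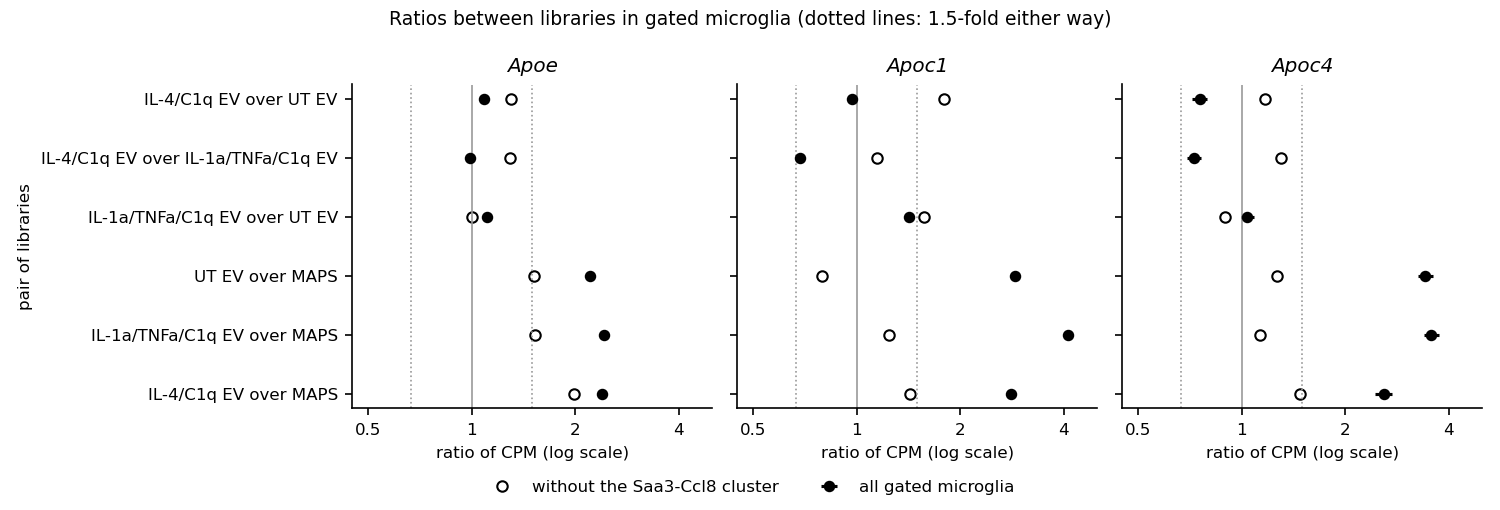
Ratio of CPM (log axis, exact 95% intervals) of Apoe, Apoc1 and Apoc4 for the 6 pairs of libraries in gated microglia, filled for all cells and open without the cluster led by Saa3 and Ccl8, with dotted lines at 1.5-fold. For all cells, ratios between EV libraries of Apoe, Apoc1 and Apoc4 lie between 0.684 and 1.42, and those over MAPS lie between 2.20 and 4.104.

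Astrocytes kept an even Apoe level among the EV libraries, with ratios of 1.07, 1.07 and 1.002 for the pairs in the order above, and were 2.43, 2.43 and 2.60 times MAPS. Apoc1 was 1.34, 0.978 and 1.37 between EV libraries and 2.60, 3.56 and 3.48 over MAPS. Neither of these 2 members passed 1.5-fold between EV libraries, where 9.4%, 14.9% and 13% of genes did. Both passed it upward over MAPS, where 14.3%, 15.1% and 14% of genes did. The libraries drew on different astrocyte clusters. A cluster led by Igsf1 and Agt had 508 MAPS cells and no EV cell, and one led by Hapln1 had 814 MAPS cells and 8 EV cells, at 21733 and 21861 CPM of Apoe. The cluster led by Myoc, with Gfap also among its leading genes, had 491, 738, 443 and 611 cells and 54847 CPM. These cluster levels pool the libraries, so cluster and library are not separated in them. The part of these clusters in the ratios over MAPS was not tested. Genes of the pan-myeloid list (C1qa, Tyrobp, Csf1r and 7 others) summed to 1027, 1822, 3838 and 2864 CPM in gated astrocytes, each of the 10 with UMIs in every library, and all 10 passed 1.5-fold upward in IL-1a/TNFa/C1q EV over UT EV. Astrocytic Apoc1 moved with them, and their part in it was not tested.

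Among the 3 myeloid classes, border macrophages had the widest ratios between EV libraries. IL-4/C1q EV over UT EV gave 1.52 (1.503 to 1.54) for Apoe, 3.13 (2.51 to 3.92) for Apoc1 and 10.0 (4.29 to 28.5) for Apoc4, the last from 51 against 6 UMIs. All 3 measured members passed 1.5-fold upward, against 12.6% of genes. Set over IL-1a/TNFa/C1q EV, they were 1.18, 1.68 and 1.91, with 2 of 3 past it where 15.2% of genes were. In thinned cells the Apoc4 ratio of this pair was 0.761. An Apoc4 UMI was then left in only 3.68% of 163 IL-1a/TNFa/C1q EV cells and 1.96% of 153 IL-4/C1q EV cells, too few to give a direction. For IL-1a/TNFa/C1q EV over UT EV they were 1.29 and 1.86 for Apoe and Apoc1, with 1 of 2 past it against 5.15%, and Apoc4 had too few UMIs. The classes held only 135, 163 and 162 cells. Thinning to 1000 UMIs left an Apoc4 UMI in only 0.813% of 123 UT EV cells. The IL-4/C1q EV ratios over UT EV were then 1.27, 1.84 and 4.02. In the cluster led by Gpnmb and Pf4, taken in place of the gate, they were 1.21, 2.24 and 1.14. That cluster is given no cell type name, since its monocyte and macrophage markers summed to 2418, 2549 and 2828 CPM and its border macrophage markers to 1376, 1959 and 1608 CPM.

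Monocytes and macrophages (184, 305 and 380 cells) gave IL-4/C1q EV over UT EV ratios of 1.25, 1.399 and 1.62. One of 3 members passed 1.5-fold upward, Apoc4, where 9.1% of genes did. IL-4/C1q EV over IL-1a/TNFa/C1q EV gave 1.31 for Apoe and 0.978 and 1.02 for Apoc1 and Apoc4, none past 1.5-fold, while 18.4% of genes passed it in either direction. For IL-1a/TNFa/C1q EV over UT EV the ratios were 0.955, 1.43 and 1.58, with Apoc4 alone past it upward against 4.17% of genes. In thinned cells the Apoc4 ratio of this pair was 0.568. It rests on few UMIs, since Apoc4 was left in 3.61% of 305 IL-1a/TNFa/C1q EV cells and 6.01% of 183 UT EV cells. A gate of at least 4 markers moved the Apoc1 ratio of IL-4/C1q EV over UT EV to 2.996, so its size depends on which cells are counted.

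The lipoprotein pathway around the members was read from lists of named genes, set against the 6.88% of all genes past 1.5-fold in microglia for IL-4/C1q EV over UT EV. In that pair none of the 6 measured lipidation and sterol export genes (of 9), 3 lipases and cofactors (of 7) or 7 intracellular cholesterol genes (of 9) passed 1.5-fold. Of 11 receptors and sorting genes measured (of 13), Lsr, a lipoprotein receptor, passed upward, and of 8 nuclear receptors (of 10) Rxrg did, at 1.95. Abca1, the transporter that lipidates Apoe, was 432, 139, 145 and 194 CPM, with IL-4/C1q EV 1.39 times UT EV. Over IL-1a/TNFa/C1q EV, where 9.83% of all genes passed 1.5-fold in either direction, Abca7 passed upward. So did Lsr at 2.24 and Stard3, a sterol carrier of endosomes, at 1.82.

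Against MAPS most genes were lower in microglia, in these lists as in general: 68.6% of all measured genes passed 1.5-fold downward in UT EV over MAPS. In that pair 7 of 8 measured lipidation genes passed 1.5-fold downward, with a list median of -1.68 on the log2 scale against -1.20 for all genes, and 8 of 12 receptors and sorting genes did. Trem2, a receptor of microglia for lipid and Apoe particles, was the only gene of the receptor list past it upward, at 1.83, with 2257, 4138, 4203 and 3908 CPM. All 4 measured lipases and cofactors passed downward, among them Lpl, which is also in the disease-associated list, at 0.23 (405, 93.2, 63.4 and 65.8 CPM). Of the genes beside the locus, 5 of 6 measured passed downward, whereas the 3 measured members had a median of 1.53 on the log2 scale. Their immediate neighbour Tomm40, a mitochondrial import channel, was 48.4, 32.1, 29.3 and 31.0 CPM.

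Among the other brain apolipoproteins, astrocytes held 5578, 2873, 2345 and 2729 CPM of Clu (clusterin, a lipid-binding chaperone), so UT EV was 0.515 times MAPS where Apoe was 2.43 times MAPS. The median gene of astrocytes in that pair was at -0.803 on the log2 scale, so a lower value was common to most genes and not particular to Clu. Apod, a lipocalin that binds small lipids, was 415, 653, 105 and 44.3 CPM. For Apod, the IL-4/C1q EV library was 0.068 times UT EV and the IL-1a/TNFa/C1q EV library 0.160 times UT EV, the widest spread of this list among astrocytes of the EV libraries.

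Across all 60 library and class sums, the genes most like Apoe by Pearson correlation of log2(CPM + 10), among 11182 genes, were Syngr1 (0.828), Trem2 (0.811) and the complement genes C1qa (0.798), C1qb (0.796) and C1qc (0.781). Those most like Apoc1 were Syngr1 (0.810), 1700003F12Rik (0.791), C1qb (0.786), Trem2 (0.782) and C1qa (0.778). Apoe and Apoc1 correlated at 0.828, Apoe and Apoc4 at 0.709 and Apoc1 and Apoc4 at 0.669. The sums share libraries, depth and free RNA, so the values only describe likeness.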

How the data were processed

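The 4 single-cell libraries were deposited as matrices of UMI counts per gene and cell barcode. Per the submitters' processing notes these counts were made with Cell Ranger 7.0.0 (and bcl2fastq 5.0.1 and Seurat 4.1.0) on GRCm39, while per the file headers the version was Cell Ranger 8.0.1. No cell annotation was used. Kept cells had 500 or more UMIs, 300 or more genes and a mitochondrial share up to 20%. Doublets called per library by Scrublet (3.64% to 5.29% of cells) were removed. A kept cell took the one of 18 classes with the most distinct markers, at least 3, and ties stayed ungated. The deposited counts were summed per library and class, for classes of at least 50 cells. Levels are CPM with exact Poisson 95% intervals, shares have Clopper-Pearson intervals, and ratios have exact conditional intervals, all covering counting error only. With 1 library per group no test was made, and a gene counts as past the fold at 1.5-fold with at least 50 UMIs over the pair. Clusters (Leiden, scanpy 1.11.5) left the 4 members out. Scripts ran in Python 3.11.15 with edgeR 4.0.16 for TMM factors and were tested on simulated data. Promoters are RefSeq entries of GRCm38.p6, matched by symbol, and no coordinate was moved between builds. Apoc1 had no entry and is named only, and the window of Apoc2 was not printed. The members and lists were chosen with earlier results of these data known. Genes named beside the members are the 5 most correlated with Apoe or Apoc1 and at most 3 of each pathway list with the largest ratio in a class and pair, plus the leading genes of clusters. Abca1, Trem2, Lpl, Tomm40, Clu, Apod and the list examples were in part named after their values were seen. Alternatives to the gate, filters and scaling are given in the closing section.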

Additional observations from a re-analysis of the deposited data

Results flagged for a closer look

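Cells that no class took up (283 in MAPS, and 1111, 1194 and 1199 in the EV libraries, ordered as before) are used in no comparison, yet they carried all 3 measurable members above the free-RNA gauge. Their Apoe was 16344, 77597, 70299 and 85255 CPM. Apoc1 was 77.9, 431, 607 and 524 CPM in the same order, and Apoc4 was 25.3, 169, 136 and 132 CPM. The ungated cells held 1.05%, 10.4%, 10.7% and 12.1% of the Apoe UMIs of their libraries. In each EV library these levels lay below those of gated microglia and above those of oligodendrocytes.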

How the results depend on the processing

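No paired analysis was possible because each group has 1 library and the labels give no replicate numbers. Of the alternatives, leaving out the cluster led by Saa3 and Ccl8 and taking Apoe out of the total were chosen after seeing the data. Microglial ratios are given for pair 1 (IL-4/C1q EV over UT EV), pair 2 (IL-4/C1q EV over IL-1a/TNFa/C1q EV), pair 3 (IL-1a/TNFa/C1q EV over UT EV) and pair 4 (UT EV over MAPS), in this order, and pairs not given moved by less than their counting interval. Apoe was 1.10, 0.994 and 2.22 (pairs 1, 2 and 4) with a gate of at least 2 markers, and 1.09, 0.992, 1.10 and 2.11 with at least 4. It was 1.36, 1.25, 1.09 and 1.26 with cluster classes, and 1.30, 1.29, 1.01 and 1.52 without the cluster led by Saa3 and Ccl8. The cluster classes of microglia also leave that cluster out, since it is unnamed. Keeping doublets gave 1.09, 1.10 and 2.23 (pairs 1, 3 and 4), and a common floor of 1233 UMIs gave 1.09, 0.994, 1.10 and 2.21. Thinning gave 1.15, 1.04 and 2.45 (pairs 1, 2 and 4), and leaving out mitochondrial and ribosomal genes gave 1.10, 1.11 and 2.35 (pairs 1, 3 and 4). Taking Apoe out of the total gave 1.10, 1.12 and 2.33 (pairs 1, 3 and 4). TMM factors gave 1.12, 0.906, 1.24 and 4.42, subtracting the T cell level gave 1.12, 0.992, 1.12 and 2.24, and subtracting the oligodendrocyte level gave 1.11, 1.13 and 2.16 (pairs 1, 3 and 4). Apoc1 was 1.67, 1.21, 1.39 and, turned, 0.646 with cluster classes, and 1.80, 1.15, 1.57 and, turned, 0.793 without the cluster led by Saa3 and Ccl8. Thinning gave 1.05, 0.705, 1.49 and 3.02 and TMM gave 1.001, 0.628, 1.60 and 5.80. UT EV over MAPS was also 2.75 with at least 4 markers, 3.08 without mitochondrial and ribosomal genes, 3.06 with Apoe out of the total and 3.01 with the T cell level subtracted. The count of members past 1.5-fold in microglia became 1 with cluster classes (pair 1, and both cytokine EV libraries over MAPS), with TMM (pairs 2 and 3) and without the cluster (each of the 6 pairs but pair 2). With cluster classes Apoc1 in IL-1a/TNFa/C1q EV over MAPS turned to 0.896, and Apoc4 over MAPS turned to 0.567, 0.541 and 0.686 (EV libraries in the order of the text). Apoc4 also turned to 0.906 in the cluster led by Gpnmb and Pf4 (pair 3). It was 0.568 in thinned monocytes and macrophages (pair 3) and 0.761 in thinned border macrophages (pair 2), each from few UMIs. The causes were not tested. Without thinning no bin of microglia with none of the disease-associated or homeostatic genes had 50 cells, so those folds have no value. Depth limits Apoc2, and limits Apoc4 outside myeloid classes.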

Other observations

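Small lymphoid and mural classes had high Apoe sums and low Apoe in the median cell. In UT EV, 60 NK cells summed to 20855 CPM while the median NK cell had 0.194% of its UMIs on Apoe, and in IL-4/C1q EV, 80 B cells summed to 28851 CPM at a median of 0.341%. In mural cells of IL-4/C1q EV (128 cells) the sum was 28218 CPM at a median of 0.281%. A few cells therefore carried these sums. Fibroblasts had higher medians, at 0.592% in MAPS, 1.14% in UT EV and 1.25% in IL-4/C1q EV. Endothelial Apoe was 5022, 7865, 12493 and 7057 CPM (MAPS first, then the EV libraries as before), with medians of 0.273%, 0.362%, 0.402% and 0.338%, so the median cell moved less than the sum.

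Neuroblasts of the IL-1a/TNFa/C1q EV library had 25.6 Apoc1 UMIs per 1000 Apoe UMIs, above the 9.47 of microglia and the 10.9 of T cells in the same library. Their Apoc1 was 161 CPM, against 32.4 to 38.6 CPM in the other EV libraries, but the UMIs, 98 in all, came from 4.49% of 245 neuroblasts (5.91% and 5.63% in UT EV and IL-4/C1q EV), so a few cells carried this sum too.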
